A study of Drosophila melanogaster with 6 samples.

Results

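The genes described are 10 that code for enzymes and carriers of ceramide and sphingolipid metabolism in Drosophila melanogaster: lace, schlank, ifc, cert, GlcT, CDase, Gba1b, Sap-r, Sk2 and Sply. They were chosen by name and matched by FlyBase identifier to the deposited count table. All 10 of them were found among its 17753 genes, and all 10 had counts in every library and passed the filter on low counts. The libraries came from male flies at day 10 with a knockdown construct (RNA interference) for the UDP-glycosyltransferase gene Ugt35b, placed under Repo-GeneSwitch, a driver active in all glia and only in the presence of the drug RU486. The 2 groups shared this genotype, and 3 libraries were given RU486 and 3 the solvent ethanol (EtOH). Each library was made from 10 flies and 500 ng of total RNA with a stranded poly(A) mRNA kit. The tissue is given as head in the sample labels and as brain in the extraction protocol. Flies fed RU486 that lacked the construct were not analysed here, so the effects of the drug and of the knockdown cannot be told apart. The labels do not say that libraries of a group came from separate cultures, and the spread behind each p-value may therefore be technical in part.

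Sphingolipids are membrane lipids built on a sphingoid base. Ceramide is made in the endoplasmic reticulum from serine and fatty acyl-CoA, and is then carried to the Golgi apparatus, glycosylated to glucosylceramide, turned into ceramide phosphoethanolamine (the main sphingolipid of insect membranes), or cleaved by ceramidases to sphingosine and a fatty acid. Sphingosine can be phosphorylated and then cleaved by a lyase, the step through which sphingoid carbon leaves the pathway. In flies, loss of glucosylceramide breakdown is known to harm brain and glial lysosomes, and ceramidase activity is known to affect the survival of photoreceptors.

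Total counts ranged from 10156909 to 10633167 in RU486 libraries and from 11689966 to 12636787 in EtOH libraries. Transcripts of the rhodopsin gene ninaE took 3.62% to 3.89% of counts in RU486 libraries and 3.74% to 4.48% in EtOH libraries, so eye transcripts were in every library. The targeted gene, Ugt35B1 in current nomenclature, was at 106, 83.5 and 104 CPM in RU486 libraries, against 145, 136 and 147 CPM in EtOH libraries (CPM are counts per 1000000 with TMM scaling factors). Its log2 fold change was -0.54 (standard error, SE, 0.09; edgeR adjusted p = 0.00865), and the call was lost without EtOH replicate 3 (adjusted p = 0.0566). In the text below a gene is called when its adjusted p in edgeR's quasi-likelihood test over all 8945 genes tested is under 0.05, and log2 fold changes are RU486 minus EtOH. Because these are bulk samples, fewer cells of a type and less RNA per cell cannot be told apart.

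Of the 10 genes, 1 was called higher in RU486, the ceramidase gene CDase, 0 were called lower and 9 did not pass. Over all genes tested, 4.36% were called higher, 3.28% lower and 7.64% in either direction, so the share among the 10 genes lay near that of the genome. An unadjusted p under 0.05 was reached by 3 of the 10 genes and by 22.3% of all genes tested, and DESeq2's Wald test and limma-voom also called CDase higher and 0 of the 10 lower. The log2 fold change was above 0 for 8 of the 10 genes, with a median of 0.11, against 50.6% of all genes tested and a median of 0.00. Of the 8, Sap-r (0.018) and Sk2 (0.012) were near 0 and changed sign with scaling by library size alone. The median size of the log2 fold change over all genes tested, in either direction, was 0.14. For 6 of the 10 genes the RU486 and EtOH libraries did not overlap, 4 being higher and 2 lower in RU486, and the same was true of 27.3% of all genes tested.

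**Figure D1:**
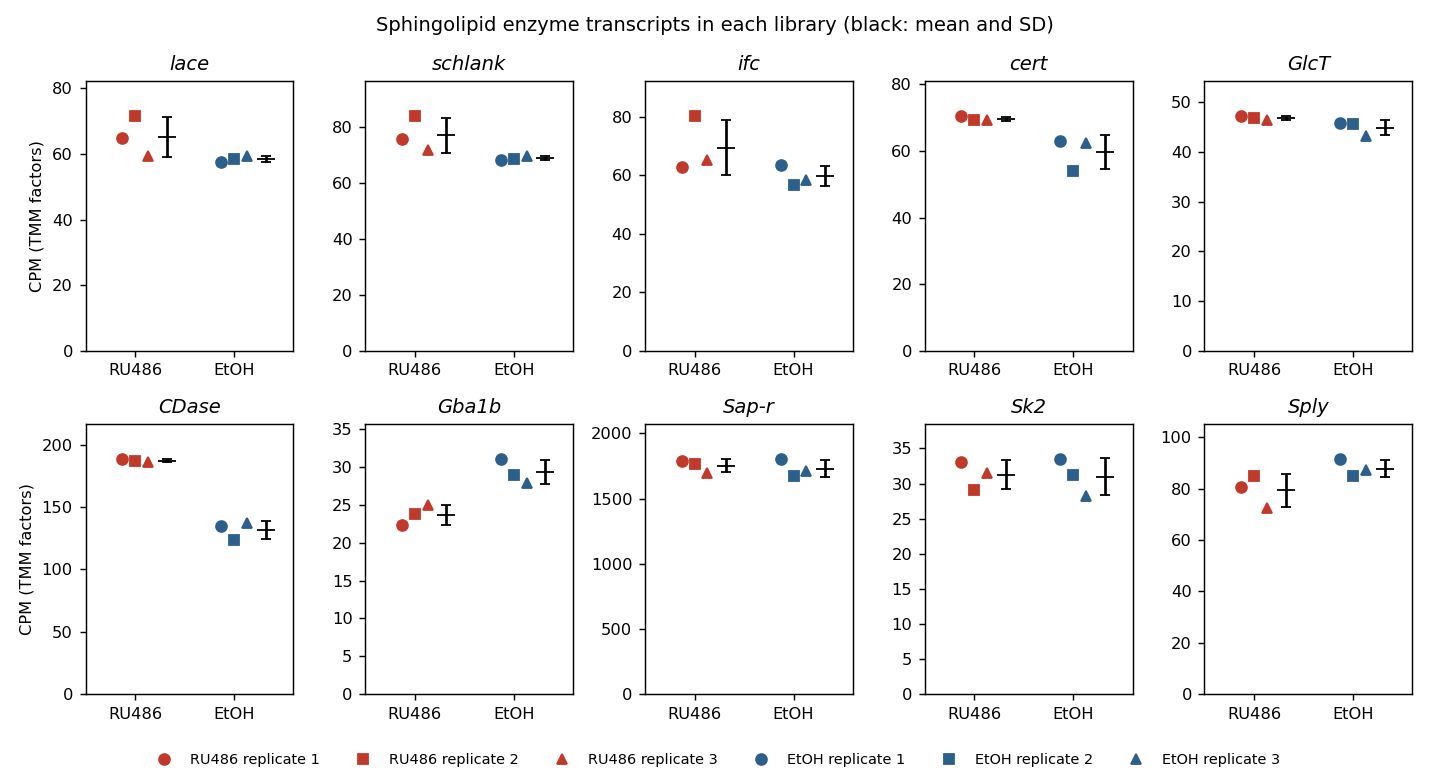
Transcript level of each of the 10 genes in every library, as CPM with TMM factors on axes that start at 0, with RU486 left of EtOH and replicates 1 to 3 as circle, square and triangle. Black bars give the mean and SD of 3 libraries. CDase stands clear of EtOH in all 3 RU486 libraries (186 to 188 CPM), Gba1b lies below it in all 3 (22.4 to 25.1 CPM), and lace, schlank and ifc share a high value in RU486 replicate 2.

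Ceramide synthesis was represented by lace, schlank and ifc, and none of these genes passed the test. The gene lace (FBgn0002524, chromosome 2L, 15499127 to 15505018, plus strand) codes for a subunit of serine palmitoyltransferase, which carries out the first and committing step. Its libraries, given here and below in the order of replicates 1 to 3, were at 64.9, 71.5 and 59.3 CPM in RU486, against 57.5, 58.5 and 59.4 CPM in EtOH. The groups overlapped, with a log2 fold change of 0.16 (SE 0.09, 95% interval -0.04 to 0.35, adjusted p = 0.323 in edgeR).

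The gene schlank (FBgn0040918, chromosome X, 6257668 to 6267228, minus strand) codes for the ceramide synthase, which joins a fatty acyl chain to the sphingoid base. It was at 75.7, 83.8 and 71.6 CPM in RU486 libraries, against 68.3, 68.5 and 69.6 CPM in EtOH libraries. Every RU486 library lay above every EtOH library, yet the difference of 0.16 on the log2 scale (SE 0.08, 95% interval -0.01 to 0.34) did not pass in edgeR (adjusted p = 0.253). The gene ifc (FBgn0001941, chromosome 2L, 5986348 to 5988854, plus strand) codes for the dihydroceramide desaturase, which completes ceramide. It was at 63.0, 80.2 and 65.2 CPM in RU486 libraries, against 63.4, 56.8 and 58.5 CPM in EtOH libraries. The groups overlapped, at a log2 fold change of 0.22 (SE 0.10, 95% interval -0.02 to 0.46, adjusted p = 0.255 in edgeR).

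All 3 synthesis genes were highest of the 6 libraries in RU486 replicate 2. Sply was highest there among RU486 libraries but below each EtOH library. This library stood apart in its midgut transcripts. The 9 midgut markers summed to 495, 10639 and 1320 per 1000000 in RU486 replicates 1 to 3. In EtOH libraries their sum was 677 to 720. Without LManII, a lysosomal mannosidase gene that made up most of the sum in RU486 replicate 1 and the EtOH libraries, the sums were 38.6, 10215 and 864 in RU486 replicates 1 to 3, against 34.9 to 56.1 in EtOH libraries. RU486 replicate 3 was also above the EtOH libraries, by less than replicate 2. Of the RU486 libraries, replicate 3 had the lowest lace (59.3 CPM) and schlank (71.6 CPM), while ifc was lowest in replicate 1. Whether midgut transcripts bear on the values of these genes was not tested. Without RU486 replicate 2 the log2 fold changes were 0.09 for lace, 0.10 for schlank and 0.10 for ifc, against 0.16, 0.16 and 0.22 with it. The coefficients of variation of lace and schlank were 9.40% and 8.07% in RU486 libraries and 1.63% and 1.02% in EtOH libraries, where counting alone would give 3.86% and 3.55% in RU486 libraries and 3.72% and 3.43% in EtOH libraries.

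Ceramide leaves the endoplasmic reticulum by the transfer protein encoded by cert (FBgn0027569, chromosome 3L, 8282528 to 8289870, minus strand). The gene was at 70.4, 69.2 and 69.2 CPM in RU486 libraries, against 63.0, 53.9 and 62.3 CPM in EtOH libraries. The groups did not overlap, and the 95% interval of the log2 fold change ran from 0.03 to 0.41 around 0.22 (SE 0.08). The unadjusted p was 0.0249 and the adjusted p in edgeR 0.151, so cert was not called. Without EtOH replicate 2, its lowest library, the log2 fold change was 0.15.

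GlcT (FBgn0067102, chromosome 2R, 22075988 to 22079381, plus strand) codes for the glucosylceramide synthase, which adds glucose to ceramide. It was at 47.2, 46.8 and 46.5 CPM in RU486 libraries, against 45.9, 45.6 and 43.2 CPM in EtOH libraries. The groups were separated by less than 1 CPM, and the log2 fold change of 0.06 had a 95% interval from -0.10 to 0.22 (SE 0.07, adjusted p = 0.678 in edgeR). Without EtOH replicate 3 it was 0.03.

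CDase (FBgn0039774, chromosome 3R, 30459521 to 30465736, plus strand, 6 annotated transcripts) codes for the neutral ceramidase, which splits ceramide into sphingosine and a fatty acid. It was at 188, 187 and 186 CPM in RU486 libraries, against 135, 123 and 137 CPM in EtOH libraries. The groups did not overlap, and even the raw counts, at 1949, 1948 and 1886 in RU486 libraries, lay above the 1678, 1442 and 1770 of the more deeply counted EtOH libraries. CDase rose 1.42-fold (95% interval 1.27 to 1.58) (log2 fold change 0.51, SE 0.07, adjusted p = 0.00255 in edgeR). The RU486 libraries differed by a coefficient of variation of 0.598%, below the 2.28% that counting alone would give, so their SD understates the error. Leaving out any 1 library kept the call of CDase in 6 of 6 fits, with log2 fold changes from 0.46 to 0.53 and adjusted p from 0.00153 to 0.0144. Without RU486 replicate 2, the library with high midgut transcripts, it was 0.51 (adjusted p = 0.0110). With RU486 replicate 1 alone against EtOH, an alternative chosen after seeing the data, it was 0.54 and not called (adjusted p = 0.109 in edgeR).

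No other annotated gene overlaps CDase, so its counts did not depend on how shared bases were handled. Its nearest neighbours on the chromosome were not called. CG2224, 220 bases away on the minus strand, had a log2 fold change of -0.03 (SE 0.11), and PH4alphaEFB, 313 bases away on the plus strand, one of -0.01 (SE 0.08). The mitochondrial carrier gene aralar1, 3653 bases away, was at -0.23 (SE 0.07, adjusted p = 0.0987 in edgeR), and none of the 4 genes tested within 20000 bases of CDase was called.

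Gba1b (FBgn0051414, chromosome 3R, 23704804 to 23708512, plus strand) codes for a lysosomal glucocerebrosidase, which returns glucosylceramide to ceramide and is the fly counterpart of the human gene mutated in Gaucher disease. It was at 22.4, 23.7 and 25.1 CPM in RU486 libraries, against 31.0, 29.0 and 27.9 CPM in EtOH libraries. Every RU486 library lay below every EtOH library, as for 13.5% of all genes tested. The log2 fold change was -0.30 (SE 0.09, 95% interval -0.50 to -0.11), with an unadjusted p of 0.00715 and an adjusted p of 0.0719 in edgeR, so Gba1b was not called. The adjusted p stayed above 0.05 in all 6 fits that left out 1 library (0.0607 to 0.209) and in 8 other settings (0.0582 to 0.172). Its log2 fold change ran only from -0.35 to -0.28 across the 6 fits. Of its 2335 exonic bases, 560 (24.0%) are shared with asRNA:CR44052 on the other strand, which had no count in any library, and without strand information reads there may have gone uncounted.

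Sap-r (FBgn0000416, chromosome 3R, 30883464 to 30889062, minus strand) codes for a saposin precursor, whose products help lysosomal enzymes reach their sphingolipid substrates. It was at 1791, 1767 and 1694 CPM in RU486 libraries, against 1801, 1675 and 1712 CPM in EtOH libraries. The groups overlapped throughout. With mean counts of 18032 in RU486 libraries and 21352 in EtOH libraries it was the most deeply counted of the 10 genes, and the 95% interval of its log2 fold change, -0.12 to 0.15 around 0.02, was also the narrowest of the 10. It was not called (adjusted p = 0.905 in edgeR), and 40 of its 3527 exonic bases are shared with CG15547 on the same strand.

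Phosphorylation of sphingosine and the exit from the pathway were represented by Sk2 and Sply, and neither passed. Sk2 (FBgn0052484, chromosome 3L, 3047087 to 3050159, plus strand) codes for a sphingosine kinase. It was at 33.1, 29.0 and 31.6 CPM in RU486 libraries, against 33.4, 31.2 and 28.3 CPM in EtOH libraries. The ranges lay over each other, and the log2 fold change of 0.01 had a 95% interval from -0.20 to 0.22 (adjusted p = 0.959 in edgeR).

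Sply (FBgn0010591, chromosome 2R, 17088441 to 17091958, minus strand) codes for the sphingosine-1-phosphate lyase, the exit step. It was at 80.6, 84.9 and 72.5 CPM in RU486 libraries, against 91.4, 85.0 and 87.1 CPM in EtOH libraries. The RU486 libraries were lower, but the highest of them came within 0.1 CPM of the lowest EtOH library. The log2 fold change was -0.15 (SE 0.08, 95% interval -0.32 to 0.02, adjusted p = 0.301 in edgeR), and -0.09 without RU486 replicate 3.

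**Figure D2:**
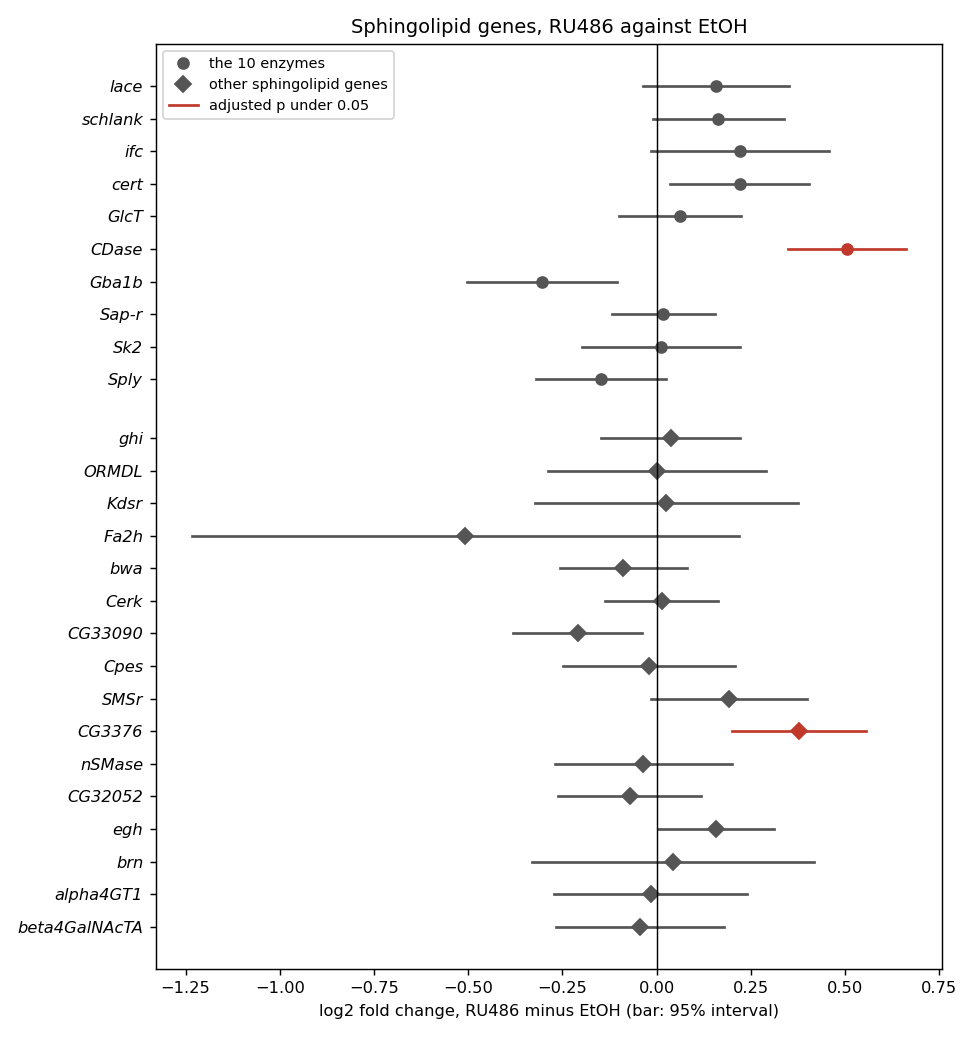
Log2 fold change, RU486 minus EtOH, of the 10 genes (circles) and of the other 16 sphingolipid genes tested (diamonds), with bars for the 95% interval and red for an edgeR adjusted p under 0.05. CDase (0.51) and CG3376 (0.38) are the called genes, and Gba1b at -0.30 has an interval below 0 without a call.

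Ratios of counts within a library do not depend on the scaling between libraries. CDase had 0.925, 0.795 and 0.949 counts for each count of lace, schlank and ifc summed in RU486 libraries, against 0.713, 0.671 and 0.732 in EtOH libraries. The ratio was higher in all 3 RU486 libraries, with a mean of 0.889 ± 0.0826 (SD, n = 3) in RU486 libraries and 0.705 ± 0.0309 in EtOH libraries. The difference was 0.33 on the log2 scale, with a two-sided exact permutation p of 0.1, the smallest that 3 against 3 libraries can give. CDase had already been called on these same libraries, so the separation of this ratio is no support beyond that call. Among RU486 libraries the ratio was lowest in replicate 2, where the synthesis genes were high, and the difference was 0.41 on the log2 scale without that library.

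The other ratios were chosen after the values were seen and are given without a test. For glucosylceramide, Gba1b had 0.474, 0.507 and 0.539 counts for each count of GlcT in RU486 libraries, against 0.676, 0.636 and 0.646 in EtOH libraries. This ratio was lower in every RU486 library than in every EtOH library. Between the breakdown genes, CDase over Gba1b was 8.40, 7.89 and 7.43 in RU486 libraries, against 4.35, 4.25 and 4.92 in EtOH libraries. For sphingosine phosphate, Sk2 over Sply was 0.411, 0.342 and 0.435 in RU486 libraries, against 0.366, 0.368 and 0.325 in EtOH libraries, and these groups overlapped.

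**Figure D3:**
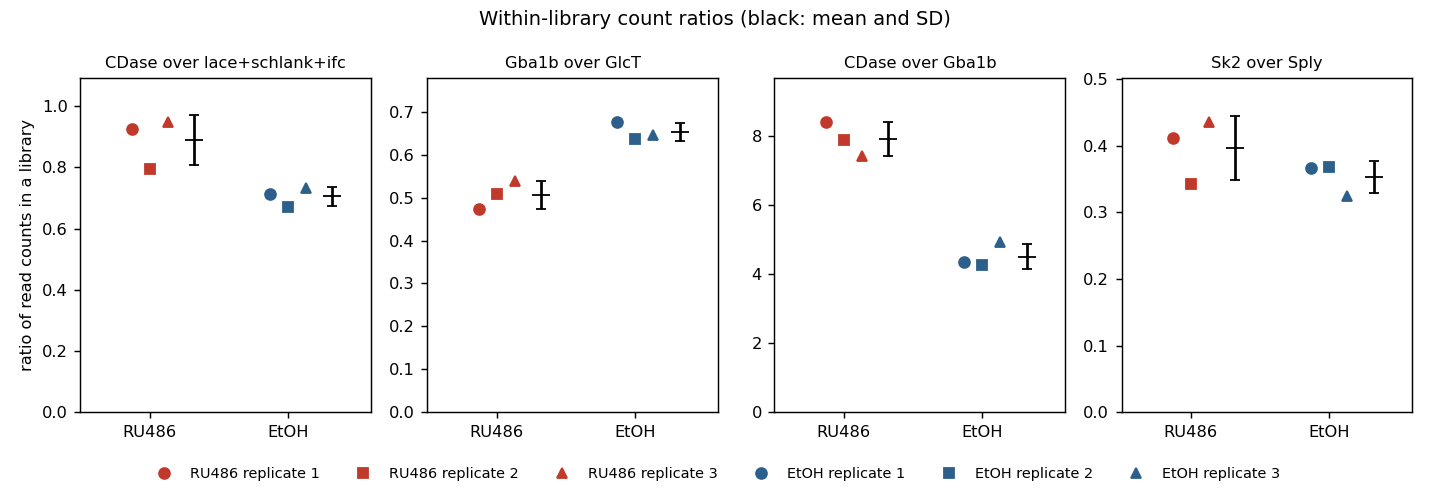
Ratio of read counts between genes of opposing or successive steps within each library, on axes that start at 0, with RU486 left of EtOH and black bars for the mean and SD of 3 libraries. CDase over lace, schlank and ifc and CDase over Gba1b are higher in all 3 RU486 libraries, Gba1b over GlcT is lower in all 3, and Sk2 over Sply overlaps.

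Levels can be compared between genes per length of exon. Sap-r stood first, at 496 ± 14.3 CPM per kilobase in RU486 libraries and 490 ± 18.4 in EtOH libraries (SD, n = 3 each), above 98.5% of all genes tested in both groups. CDase was second in both groups, at 63.4 ± 0.379 CPM per kilobase in RU486 libraries and 44.7 ± 2.50 in EtOH libraries. Sply followed at 36.7 ± 2.91 CPM per kilobase in RU486 libraries and 40.6 ± 1.51 in EtOH libraries, and the ranges of CDase and Sply overlapped in EtOH libraries but not in RU486 libraries.

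Below these, schlank and ifc overlapped in both groups, at 31.0 and 31.6 CPM per kilobase in RU486 libraries and 27.7 and 27.1 in EtOH libraries. The same held for cert and lace, at 24.0 and 21.8 CPM per kilobase in RU486 libraries and 20.6 and 19.5 in EtOH libraries. GlcT, Gba1b and Sk2 lay below the median of all genes tested, which was 15.0 CPM per kilobase in RU486 libraries and 14.7 in EtOH libraries. GlcT was at 13.8 CPM per kilobase in RU486 libraries and 13.2 in EtOH libraries, and Sk2 at 12.04 in RU486 libraries and 11.9 in EtOH libraries. Gba1b was last in RU486 libraries, at 10.2 CPM per kilobase, and next to last in EtOH libraries at 12.6, where its range overlapped those of GlcT and Sk2. Its whole CPM divided by the unshared exonic length alone gave 13.4 CPM per kilobase in RU486 libraries and 16.5 in EtOH libraries. This division assumes that no read was counted in the shared bases. The EtOH value lay above the median of 14.7, which was taken over all exonic bases. The place of Gba1b among these 3 genes, and against the median in EtOH libraries, therefore depended on how the shared bases were treated.

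**Figure D4:**
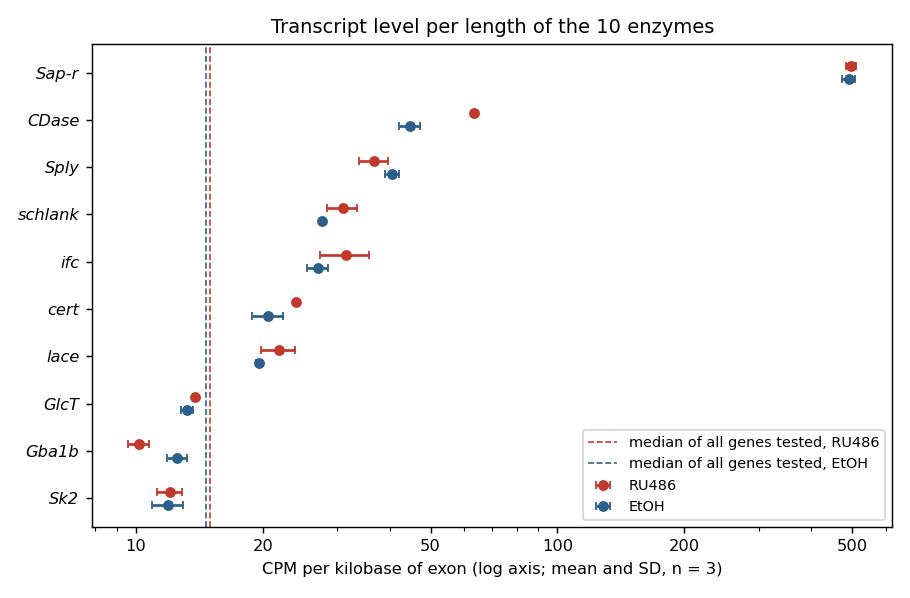
Mean CPM per kilobase of exon of the 10 genes on a log axis, with bars for the SD of 3 libraries, RU486 above EtOH within each gene, and dashed lines at the median of all genes tested. Sap-r at 496 in RU486 libraries and 490 in EtOH libraries is far above the rest, and GlcT, Gba1b and Sk2 lie below the median lines. Exonic bases shared with other genes are included.

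Other genes of the pathway numbered 23, of which 16 were tested, 1 rose, 0 fell and 15 did not pass, with a median log2 fold change of -0.01. DESeq2's Wald test and limma-voom also called 1 of them each, and 3 of the 16 had an unadjusted p under 0.05 in edgeR. Of all genes tested, 7.64% were called and 22.3% had such a p. The gene that rose was CG3376, annotated as an acid sphingomyelinase, an enzyme that releases ceramide from phosphosphingolipids. It was at 97.3, 83.1 and 89.1 CPM in RU486 libraries, against 66.4, 72.7 and 68.1 CPM in EtOH libraries. The groups did not overlap, and CG3376 rose 1.30-fold (log2 fold change 0.38, SE 0.08, adjusted p = 0.0208 in edgeR). The call was lost without RU486 replicate 1 (adjusted p = 0.116), RU486 replicate 3 (0.0732), EtOH replicate 1 (0.117) or EtOH replicate 3 (0.111), with log2 fold changes from 0.31 to 0.43 over all 6 fits that left out 1 library.

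Of the sphingomyelinase and ceramide phosphoethanolamine genes, CG32052, another sphingomyelinase-like gene, was at 52.9 ± 2.38 CPM in RU486 libraries and 55.6 ± 4.32 CPM in EtOH libraries. SMSr, of ceramide phosphoethanolamine synthesis in the endoplasmic reticulum, was at 40.5 ± 1.68 CPM in RU486 libraries and 35.4 ± 3.48 CPM in EtOH libraries (log2 fold change 0.19, adjusted p = 0.256 in edgeR, and 0.12 without EtOH replicate 2). Its groups did not overlap. Cpes, the main ceramide phosphoethanolamine synthase, was at 45.6 ± 4.80 CPM in RU486 libraries and 46.2 ± 3.76 CPM in EtOH libraries, and the neutral sphingomyelinase gene nSMase at 20.004 ± 0.345 CPM in RU486 libraries and 20.5 ± 2.06 CPM in EtOH libraries. These 2 genes had log2 fold changes of -0.02 and -0.04.

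The regulators and other enzymes of synthesis gave no call. The small serine palmitoyltransferase subunit gene ghi was at 37.4 ± 1.68 CPM in RU486 libraries and 36.4 ± 2.29 CPM in EtOH libraries. ORMDL, which restrains the same enzyme, was at 18.4 ± 2.42 CPM in RU486 libraries and 18.4 ± 1.66 CPM in EtOH libraries, and the reductase gene Kdsr at 17.9 ± 2.61 CPM in RU486 libraries and 17.6 ± 2.87 CPM in EtOH libraries. Fa2h, a fatty acid 2-hydroxylase gene, had 18, 29 and 13 counts in RU486 libraries, against 38, 35 and 29 counts in EtOH libraries, and its 95% interval from -1.23 to 0.22 around a log2 fold change of -0.51 was the widest of the 16. The log2 fold change of Fa2h was -0.86 without RU486 replicate 2 and -0.29 without RU486 replicate 3. As with Gba1b, part of the exonic bases is shared with a gene on the other strand, 25.9% in Fa2h (CG11125) and 22.5% in Kdsr (asRNA:CR46099).

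Among genes that act on ceramide beside CDase, the alkaline ceramidase gene bwa was at 47.5 ± 0.710 CPM in RU486 libraries and 50.5 ± 2.53 CPM in EtOH libraries (log2 fold change -0.09, 95% interval -0.26 to 0.08), and its log2 fold change was -0.14 without EtOH replicate 1 and -0.05 without EtOH replicate 3. The interval of bwa did not reach that of CDase. The ceramide kinase gene Cerk was at 122 ± 6.90 CPM in RU486 libraries and 121 ± 3.94 CPM in EtOH libraries. CG33090, the counterpart of the non-lysosomal glucosylceramidase of mammals, was at 64.6, 65.9 and 66.6 CPM in RU486 libraries, against 71.5, 82.2 and 74.2 CPM in EtOH libraries. Its groups did not overlap, and its log2 fold change of -0.21 (SE 0.08) did not pass (adjusted p = 0.141 in edgeR). Without EtOH replicate 2 it was -0.15.

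Of the genes that extend glucosylceramide, egh, the mannosyltransferase gene, was at 195, 201 and 205 CPM in RU486 libraries, against 181, 183 and 174 CPM in EtOH libraries. These groups did not overlap either, and egh was not called (log2 fold change 0.16, adjusted p = 0.210 in edgeR). The next enzymes, brn, beta4GalNAcTA and alpha4GT1, had log2 fold changes of 0.04, -0.05 and -0.02 and did not pass. Gba1a, the paralog 2198 bases upstream of Gba1b, had 3, 5 and 0 counts in RU486 libraries and 2, 2 and 5 counts in EtOH libraries, so Gba1b carried nearly all counts of the pair. Gba1a and alpha4GT2, with 0 to 5 counts in every library, were not tested. The other 5 genes had no count in any library and were treated as not measured. Of these, Sk1, the other sphingosine kinase gene, lies inside Evi5, Spt-I, the partner subunit of lace, shares 99.5% of its exonic bases with an antisense gene, and beta4GalNAcTB lies inside one. The sphingomyelinase-like genes CG15533 and CG15534 overlap no other gene.

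Gba1b and Sap-r act in the lysosome, and a list of 14 lysosomal genes gave 13 tested, of which 0 rose, 1 fell and 12 did not pass, with a median log2 fold change of -0.01. The gene that fell was Npc2a, a sterol-binding protein gene, at 127, 109 and 108 CPM in RU486 libraries, against 165, 143 and 140 CPM in EtOH libraries (log2 fold change -0.38, SE 0.09, adjusted p = 0.0386 in edgeR). Its groups did not overlap, and it was called in 2 of the 6 fits that left out 1 library. Its call was lost without RU486 replicate 2 (adjusted p = 0.139), RU486 replicate 3 (0.146), EtOH replicate 1 (0.117) or EtOH replicate 3 (0.0806). The others with the smallest p were Hexo2, spin and Ppt1, at log2 fold changes of -0.26, 0.17 and 0.26 and adjusted p of 0.162, 0.222 and 0.265 in edgeR. Ppt1 was at 0.13 without RU486 replicate 1. The 4 log2 fold changes had both signs, and 3 of the 13 genes had an unadjusted p under 0.05, against 7.64% called and 22.3% with such a p among all genes tested.

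Markers of several cell types moved with the groups. Of 9 fat body markers tested, 6 were called lower and 0 higher, and the 11 listed summed to 6042 to 6368 per 1000000 in RU486 libraries and 6603 to 7386 in EtOH libraries. Most of that sum was the lipoprotein gene apolpp (log2 fold change -0.05), and the other 10 summed to 936 to 996 in RU486 libraries and 1237 to 1572 in EtOH libraries. The odorant-binding protein gene Obp99b was at 10.01, 3.57 and 5.91 per 1000000 in RU486 libraries, against 188, 147 and 108 in EtOH libraries (log2 fold change -4.49). The storage protein gene Lsp1beta was at 13.7, 9.40 and 4.43 in RU486 libraries, against 119, 141 and 58.4 in EtOH libraries (log2 fold change -3.51). Of 5 hemocyte markers tested, 2 (Pxn and srp) were called higher. The 6 listed summed to 777 to 853 in RU486 libraries and 536 to 564 in EtOH libraries. Pxn, the largest part of the sum in RU486 libraries, was at 411 to 485 there and 195 to 212 in EtOH libraries. The defining marker Hml was at 257 to 281 in RU486 libraries and 236 to 276 in EtOH libraries. NimC1 and eater had log2 fold changes of 0.03 and 0.07 and were not called. Of 11 glial markers tested, 2 were called higher and 3 lower, moody and alrm were at 0, and the sum was 4475 to 4856 in RU486 libraries and 4535 to 4747 in EtOH libraries. The glial markers called were wrapper, Gat and zyd, at log2 fold changes of -2.10, -1.92 and -0.89, and Mdr65 and bdl, at 0.95 and 0.73, and 7 of the 11 had an unadjusted p under 0.05. The sum was led by Gs2, at 1959 to 2184 in RU486 libraries and 1971 to 2139 in EtOH libraries. Of 8 midgut markers tested, 2 (Amy-p and Amy-d) were called higher and 1, LManII, lower, and 8 had an unadjusted p under 0.05. Log2 fold changes of those tested other than LManII ran from 4.79 (Amy-d) to 8.02 (betaTry). Amy-p was at 9.24, 778 and 257 and Amy-d at 21.8, 1294 and 319 per 1000000 in RU486 libraries. In EtOH libraries Amy-p was at 3.17 to 5.22 and Amy-d at 19.5 to 20.6. LManII was at 456, 425 and 456 per 1000000 in RU486 libraries, against 676, 621 and 673 in EtOH libraries. In edgeR none of 8 eye, 8 muscle and 5 neuron markers tested was called, although 5, 0 and 1 of them had an unadjusted p under 0.05. Eye markers summed to 61067 to 65998 per 1000000 in RU486 libraries and 65661 to 76512 in EtOH libraries, and neuron markers, with Syx1A at 0 and elav at 12 counts over all libraries, to 5704 to 5798 in RU486 libraries and 4891 to 6970 in EtOH libraries. Muscle markers summed to 3456 to 3744 in RU486 libraries and 3581 to 4003 in EtOH libraries. The part of these cell types in the values of CDase, Gba1b, the other members of the set, CG3376 and Npc2a was not tested. Markers of the male reproductive tract summed to 0.940 to 1.64 per 1000000 in RU486 libraries and 1.27 to 1.85 in EtOH libraries, with Acp26Aa, Acp36DE, Mst84Da and ocn at 0.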

How the data were processed

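Raw counts of reads per gene were deposited in 1 table with a column for each library, not normalised by the authors, per the file headers. BDGP6 is the build in the submitters' processing notes. Aligner, counter, strand setting and annotation are not given in the sources at hand. Of 1001 protein-coding genes lying inside another only on the opposite strand, 1001 had no count, as had 839 of 845 with a same-strand host and 1057 of 11999 elsewhere, so a gene with 0 in every library was treated as not measured. Symbols were matched by identifier for 17626 of 17753 rows. Coordinates are 1-based, from Ensembl release 115 (BDGP6.54).

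The fit used edgeR 4.0.16 in R 4.3.3 (filterByExpr with a minimum count of 10, TMM factors, two-sided quasi-likelihood test, Benjamini-Hochberg adjustment over 8945 genes). SE was derived from the log2 fold change and the F statistic. Marker sums are per 1000000 total counts without TMM factors. Intervals cover the spread between libraries. The procedure was tested on simulated counts with a common dispersion for all genes and no outlying library. That test does not show how it handles a library that stands apart, such as RU486 replicate 2 or EtOH replicate 2. In EtOH replicate 2 neuron markers summed to 6970 per 1000000, against 4891 and 5418 in EtOH replicates 1 and 3. Without it 1441 genes were called, against 683 with all libraries. Alternatives used DESeq2 1.42.0 and limma 3.58.1, other scaling and filters, a replicate block, and each library left out. The 10 genes were given by name, and whether results of these data were known at that choice is not stated. All other lists were written with earlier results of these data known. Named beyond the 10 were, per subgroup, each called gene and up to 4 with the smallest p, and Cpes, unmeasured genes, chromosomal neighbours and markers outside that rule. No libraries agreed within sampling noise.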

Additional observations from a re-analysis of the deposited data

How the results depend on the processing

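CDase was called higher and 0 of the 10 genes lower with DESeq2 size factors, library size alone, no filter or a stricter one, the replicate block, removal of the 10 most abundant genes, the DESeq2 Wald test, limma-voom and each library left out. With an adjusted p under 0.1, 1 of the 10, Gba1b, was called lower. An added alternative chosen after seeing the data kept RU486 replicate 1 alone, without the 2 RU486 libraries whose midgut transcripts were highest, and assumes that this library varies like the others. It called 198 genes, 0 of the 10 and 0 of the other sphingolipid genes, with CDase at 0.54 (adjusted p = 0.109), Kdsr at -0.17 and alpha4GT1 at 0.050. Of all genes, 683 were called, 321 at an adjusted p under 0.01, 1114 under 0.1, and 341 (without EtOH replicate 3) to 1441 (without EtOH replicate 2) with 1 library left out. Those fits called 1 of the 10 higher and 0 to 1 of the other sphingolipid genes.

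The replicate block called 872 genes and changed no call among the 10. Same-numbered libraries had correlations of deviations of 0.115, 0.243 and -0.0184, RU486 replicate 1 correlated best with EtOH replicate 3 (0.271), and the numbers were not taken as pairs. The ceramidase ratio was 0.35 with schlank alone as denominator and 0.28 to 0.41 with 1 library left out.

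Log2 fold changes near 0 changed sign. Library size alone gave -0.0021 for Sap-r, -0.0070 for Sk2, -0.0068 for Cerk and -0.020 for ORMDL. No filter gave -0.0012 for Sk2 and -0.013 for ORMDL. ORMDL was also at -0.0015 with DESeq2 factors, -0.0070 with the stricter filter, -0.0034 with the replicate block or the Wald test, -0.0048 with the 10 genes removed and -0.0043 with limma-voom. With 1 library left out the ranges were -0.0092 to 0.041 for Sap-r, -0.050 to 0.062 for Sk2, -0.012 to 0.076 for ghi, -0.065 to 0.11 for ORMDL, -0.099 to 0.12 for Kdsr, -0.019 to 0.058 for Cerk, -0.10 to 0.048 for Cpes, -0.11 to 0.034 for nSMase, -0.041 to 0.12 for brn and -0.13 to 0.073 for alpha4GT1. The cause was not tested. Gba1b had the fewest counts of the 10 genes, 232 to 254 in RU486 libraries and 339 to 386 in EtOH libraries.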
